A study of Mus musculus with 12 samples.

Results

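The 43 genes described here act in the repair of DNA double-strand breaks and interstrand crosslinks. They are listed by gene name for their known roles, out of 24421 genes in the count table. By role they fall into BRCA1 and BRCA2 with their direct partners (5 genes), strand exchange factors (8), end sensing and resection (7), the chromatin response at breaks (5), non-homologous end joining (7), the Fanconi anemia pathway (10) and polymerase theta mediated end joining (1). All 43 were found in the table, all 43 passed the filter on low counts, and their counts per library ran from 150 to 68022. RNA-Seq was performed on mouse embryonic fibroblasts (MEFs) of 2 genotypes, a control line that the labels call Null, where the study's text speaks of WT MEFs without saying whether these are the same cells, and a line in which TFEB and TFE3 were both disrupted with CRISPR (DKO). Each genotype was sampled as control and after 8 hr in 100 µM etoposide, with 3 libraries in each of the 4 groups. Etoposide holds topoisomerase II on cut DNA and so leaves double-strand breaks. The question behind the design was how loss of TFEB and TFE3 alters the transcriptional response to DNA damage. Both MEF lines are immortalized and each genotype was 1 line, so that genotype and line cannot be told apart. Control cells are untreated by the labels and received vehicle by the study's methods. RNA was isolated with either of 2 kits, with no record of which kit served which sample, and made into stranded libraries of total RNA after removal of ribosomal RNA.

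The reads counted on genes in a library numbered 66956083 to 83970210 in Null control MEFs (median 67654759), 66749645 to 104120871 in DKO control MEFs (median 74826945), 63286195 to 76125320 in Null MEFs after etoposide (median 75454495) and 45577023 to 94388705 in DKO MEFs after etoposide (median 68441372). Levels are given in CPM, a gene's share of the counts in its library, on library sizes scaled by edgeR's TMM method. Tests were made in 1 model of all 12 libraries over the 15220 genes that passed the filter, with p-values adjusted over all of them, and a gene is said to rise, fall or differ where the adjusted p was under 0.05. Nothing in the sources says that the 3 libraries of a group came from separate cultures, so these p-values measure only the spread between these samples. RNA from a whole culture does not separate fewer cells of a type from less RNA per cell.

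A double-strand break is recognised by, among others, the MRE11-RAD50-NBN complex. Phosphorylated histone H2AX, bound by MDC1, marks the surrounding chromatin and brings in the ubiquitin ligases RNF8 and RNF168 and the adaptor 53BP1. The ends are either bound by Ku and joined directly by the Ku and DNA-PK machinery or resected to single strands. On these BRCA2 and the strand exchange factors act so that the sister chromatid can be copied. The Fanconi proteins detect crosslinked DNA, ubiquitinate FANCD2 and FANCI, and pass the unhooked lesion on to recombination, while polymerase theta joins resected ends through short stretches of matching sequence.

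The targeted genes were read first. Tfeb was measured at 38.9, 39.2 and 42.1 CPM in the Null control libraries, 11.4, 10.2 and 10.4 CPM in Null MEFs after etoposide, 4.60, 6.09 and 4.68 CPM in the DKO control libraries and 1.92, 1.61 and 2.20 CPM in DKO MEFs after etoposide. Every DKO library lay below every Null library of the same treatment. The log2 fold change of DKO against Null was -2.94 (SE 0.092, adjusted p = 1.05e-14) in control MEFs and -2.46 (SE 0.12, adjusted p = 5.06e-12) after etoposide (quasi-likelihood test of edgeR, p-values adjusted by Benjamini and Hochberg). Tfe3 was measured at 115, 109.9 and 114 CPM in the Null control libraries, 68.5, 69.6 and 68.1 CPM in Null MEFs after etoposide, 94.1, 93.1 and 90.96 CPM in the DKO control libraries and 70.7, 71.2 and 63.4 CPM in DKO MEFs after etoposide. Its transcript was therefore still counted in the DKO MEFs, lower than in Null control MEFs with a log2 fold change of -0.29 (SE 0.042, adjusted p = 8.68e-06, same edgeR test), while after etoposide the libraries of both genotypes overlapped (adjusted p = 0.871, same edgeR test). A disrupting edit need not remove the transcript, and the counts do not show the edited bases.

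Fibroblast markers were abundant in both lines, with Thy1 as the exception. Summed over 8 fibroblast markers, of which the intermediate filament gene Vim was the most abundant in all groups but DKO etoposide, where Fn1 was, the level was 7101 ± 59.9 CPM (SD, n = 3) in Null control, 11546 ± 322 in DKO control, 3981 ± 51.9 in Null etoposide and 5149 ± 168 CPM in DKO etoposide MEFs. Thy1 was near absent from the DKO libraries, at 0.0602, 0.0326 and 0.0168 CPM in control and 0.0405, 0.287 and 0.0596 CPM after etoposide, against 4.50, 4.10 and 4.03 CPM in Null control. After etoposide 8 of the 8 markers fell in Null MEFs and 7 in DKO MEFs. Among all genes tested, 42.3% rose and 37.2% fell in Null and 43.7% rose and 31.5% fell in DKO MEFs. The 4 leukocyte markers summed to 1.46 ± 0.225 CPM in Null control and 12.7 ± 0.564 CPM after etoposide, most of it the lysosomal membrane gene Cd68, and to 1.59 ± 0.461 and 3.77 ± 0.435 CPM in DKO MEFs, with Ptprc at most 0.540 CPM in any library and Cd3e too low to be tested. All 3 leukocyte markers tested rose in both lines. The 4 epithelial markers, with Krt8 the most abundant in control and Cdh1 in etoposide-treated MEFs of both lines, summed to 2.60 ± 0.312 CPM in Null control, 2.49 ± 0.183 in Null etoposide, 5.35 ± 0.492 in DKO control and 2.06 ± 0.176 CPM in DKO etoposide MEFs. The 4 endothelial markers, with Tek or Pecam1 the most abundant depending on the group, all rose in both lines, and their sum went from 0.130 ± 0.0821 to 2.54 ± 0.353 CPM in Null and from 0.133 ± 0.0781 to 1.10 ± 0.362 CPM in DKO MEFs. The part of these shifts in the changes of the repair genes was not tested.

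Per kilobase of exon, H2afx, which encodes the histone variant H2AX, stood far above every other repair gene, at 382 CPM per kb in Null control MEFs. The next was Nbn, the signalling subunit of the end-binding complex, at 32.1 CPM per kb, the median over the 43 genes was 5.21 CPM per kb, and the lowest level was that of the ubiquitin ligase gene Rnf8 at 0.607 CPM per kb. H2afx and Rnf8 also held the highest and the lowest place in the other 3 groups. In summed level, the 43 genes were at 2254, 2268 and 2253 CPM in the Null control libraries, 2254, 2248 and 2179 CPM in DKO control, 2341, 2293 and 2252 CPM in Null etoposide and 2649, 2650.1 and 2734 CPM in DKO etoposide. The 3 DKO libraries after etoposide thus lay above all others, and the other 9 libraries overlapped. That overlap rests on H2afx, without which the sums were 1744, 1738 and 1707 CPM in Null control, 1710.3, 1683 and 1692 CPM in DKO control, 1945, 1898 and 1844 CPM in Null etoposide and 1981, 1974 and 2058 CPM in DKO etoposide, so that all treated libraries lay above all controls. With H2afx included, the overlap also depends on the TMM scaling. Its factors were 0.962 to 0.969 in Null control, 0.884 to 0.893 in DKO control and 1.084 to 1.086 in Null etoposide libraries.

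**Figure D1:**
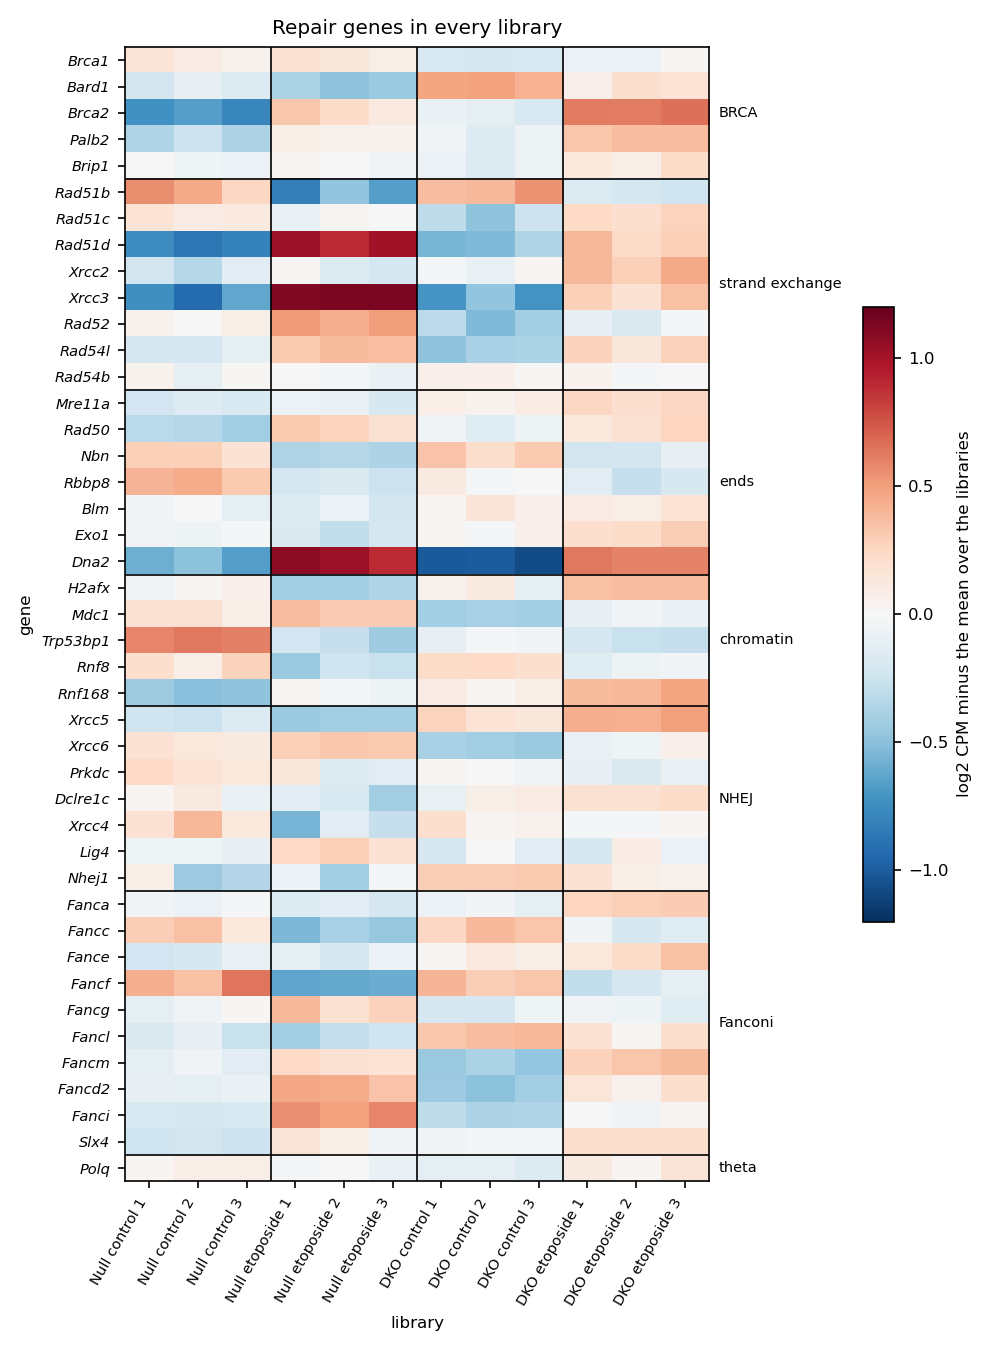
Heat map of the 43 repair genes (rows, grouped by role) in the 12 libraries (columns, grouped by genotype and treatment). Colour gives log2 CPM minus the gene's mean over the libraries. Xrcc3, Rad51d and Dna2 stand out in red in the Null etoposide libraries, and H2afx, Xrcc5 and Fanca are highest in the 3 DKO etoposide libraries.

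Etoposide moved the repair genes in both directions in Null MEFs. Of 43 genes, 17 rose and 16 fell by edgeR's test, and 10 did not pass it. Among all genes tested, 42.3% rose and 37.2% fell (79.4% in either direction), so these shares of the repair genes were near the background. The median log2 fold change was 0.032 over the repair genes and 0.066 over all genes tested. Single genes ranged from -1.10 for Fancf to 1.88 for Xrcc3, and 5 of the 33 calls were of 2-fold or more, the rises of Xrcc3, Rad51d and Dna2 and the falls of Fancf and Rad51b. In DKO MEFs 26 genes rose, 9 fell and 8 did not pass, against a background of 43.7% rising and 31.5% falling (75.1% in either direction). The median was 0.22 there and 0.14 over all genes tested, and the rise of Dna2 was the only call of 2-fold or more.

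The split between rises and falls depends on the scaling of the libraries. With library size alone in place of TMM, the median over all genes moved by 0.17 (log2) in Null and by 0.27 in DKO MEFs, and the calls among the repair genes became 23 higher and 10 lower in Null and 32 higher and 4 lower in DKO MEFs. Relative to the median of all genes, 19 of the 43 genes lay above it and 24 below it in Null MEFs, and 27 above and 16 below in DKO MEFs, counts that a change of scaling leaves in place by construction. Of the called genes, 5 changed sign with library size alone, Rad51c and Fanca in Null MEFs and Trp53bp1, Rbbp8 and Fancl in DKO MEFs, and none of the 5 passed the test there.

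Set side by side for the 2 lines, 15 genes rose in both, namely Brca2, Palb2, Rad51d, Xrcc3, Rad52, Rad54l, Rad50, Dna2, Mdc1, Rnf168, Xrcc6, Fancm, Fancd2, Fanci and Slx4. Another 8 fell in both, namely Bard1, Rad51b, Nbn, Rbbp8, Trp53bp1, Rnf8, Fancc and Fancf. There were 5 genes that fell in Null and rose in DKO MEFs, namely Rad51c, Exo1, H2afx, Xrcc5 and Fanca. Of these falls in Null MEFs, only that of H2afx passed with library size alone. In DKO MEFs alone, 6 passed the test as higher (Brca1, Brip1, Xrcc2, Mre11a, Fance and Polq) and 1 as lower (Fancl), and in Null MEFs alone 3 passed as lower (Prkdc, Dclre1c and Xrcc4) and 2 as higher (Lig4 and Fancg). The remaining 3, Rad54b, Blm and Nhej1, passed in neither. Among all genes tested, 30.5% rose in both lines, 24.2% fell in both and 5.40% fell in Null and rose in DKO MEFs, while 7.81% passed as higher and 3.71% as lower in DKO MEFs alone, 7.52% as lower and 8.30% as higher in Null MEFs alone, and 9.05% in neither. No repair gene rose in Null and fell in DKO MEFs, a pattern of 3.52% of all genes tested. Of the values that did not pass, those of Brca1, Brip1, Xrcc2, Rad54b, Mre11a, Blm, Fance, Fancl and Polq in Null MEFs and of Rad54b, Blm, Prkdc, Dclre1c, Lig4, Nhej1 and Fancg in DKO MEFs passed in at least 1 alternative. Passing in 1 line and not in the other does not show a difference between the lines, which the interaction below tests.

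**Figure D2:**
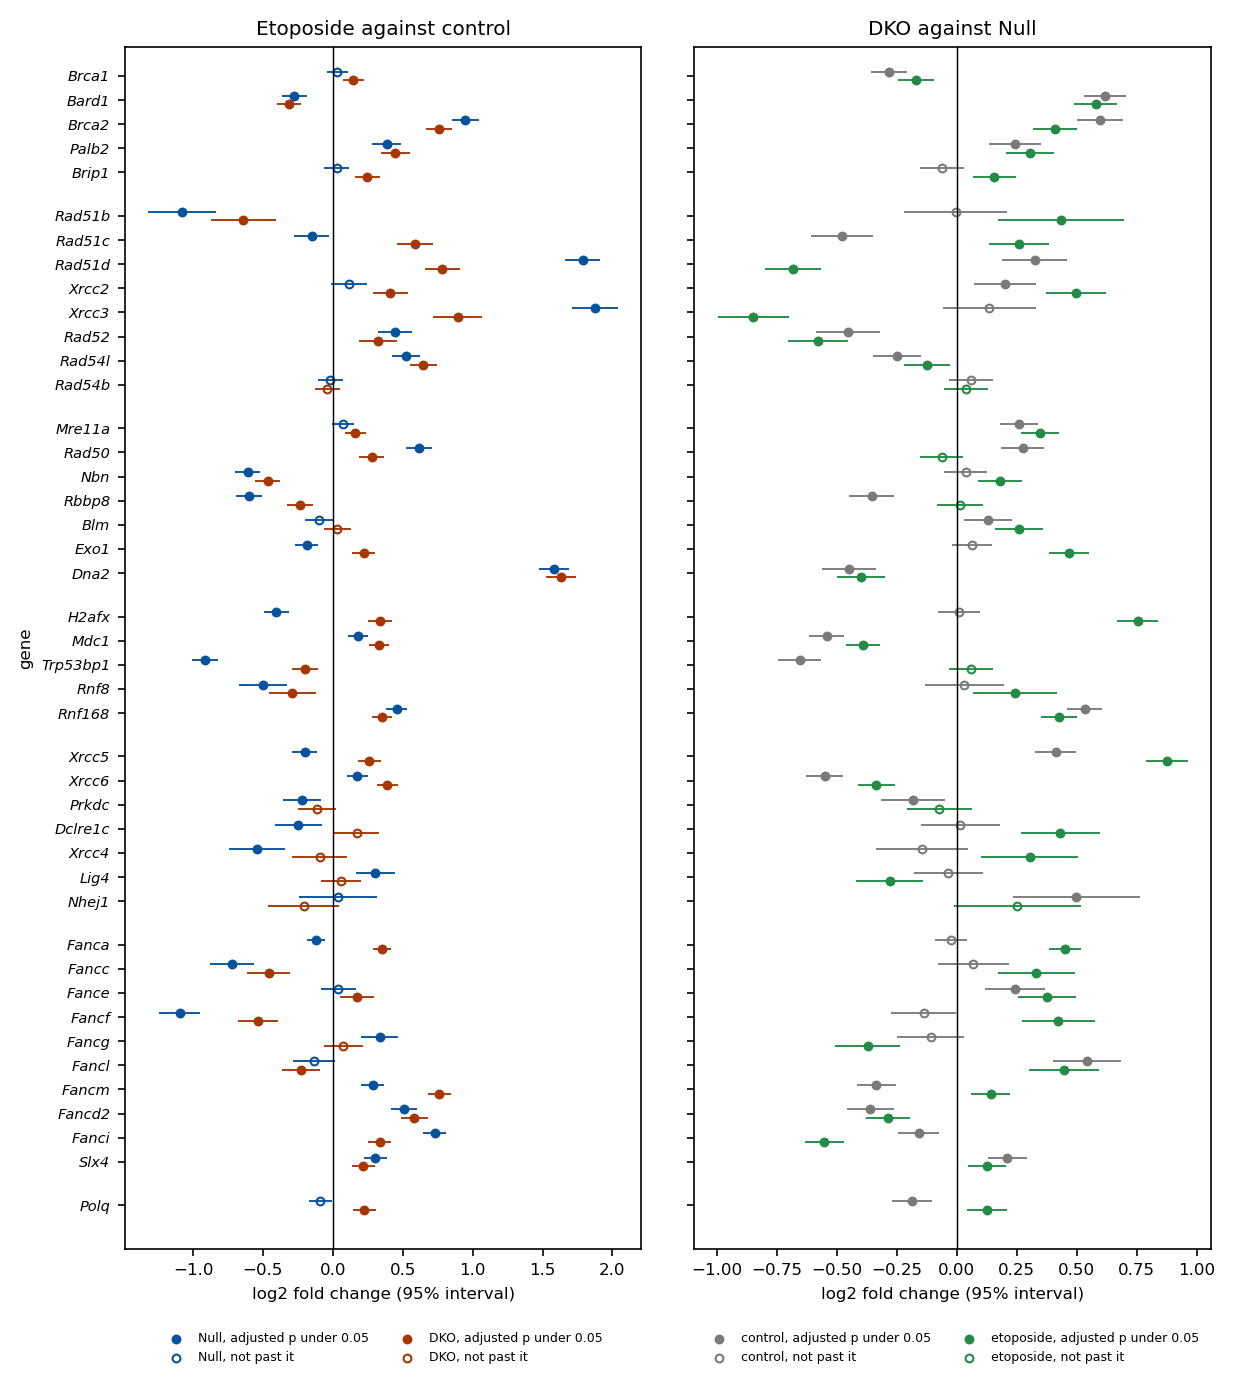
Log2 fold changes of the 43 repair genes, grouped by role, with 95% intervals. Left, etoposide against control in Null (blue) and DKO (brown) MEFs, and right, DKO against Null in control (grey) and etoposide-treated (green) MEFs. Filled points passed an adjusted p of 0.05 over all genes tested and open points did not. Xrcc3 and Rad51d rose further in Null than in DKO MEFs, Dna2 rose about equally, and H2afx lay on opposite sides of 0.

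RefSeq promoters (GRCm38.p6, 250 bases before to 50 after the start) were matched for 33 of the 43 genes, in 37 entries; Rad51d, Xrcc2, Rad54b, Rad50, Nbn, Rbbp8, Exo1, H2afx, Prkdc and Fancd2 had no entry. Both strands were searched for 4 motifs that occur at promoters of genes of growth, cell cycle or lysosomes. These were E2F-type words (TTTCCCGC, TTTCGCGC, TTTGCCGC or TTTGGCGC), the CHR word TTTGAA, the CCAAT box CCAAT and the E-box CACGTG, the core of the element that TFEB and TFE3 bind. None of these words contains another, although neighbouring matches can share bases. An E2F-type word was present for 6 of the 33 genes (18.2%), against 2.60% of the 27025 genes with a promoter in the table, the CHR word for 4 (12.1% against 20.2%), the CCAAT box for 19 (57.6% against 41.1%) and the E-box for 2 (6.06% against 8.09%). The genes with an E2F-type word were Bard1, Brca2, Rad51c, Mdc1, Xrcc6 and Fancg. Of these, 4 rose and 2 fell with etoposide in Null MEFs. Those with the CHR word were Bard1, Rad51b, Rnf8 and Polq, of which 0 rose and 3 fell there. Of the 19 with a CCAAT box, 7 rose and 7 fell. Those with an E-box were Xrcc5, which fell, and Slx4, which rose. Over the 33 genes matched, 14 rose and 11 fell in Null MEFs. A match is a description of the letters and not a binding site. Of the genes followed below, 6 are shown, chosen after their values were seen because they rose in both lines (Brca2, Xrcc3 and Dna2), fell in both (Fancf) or moved in opposite directions (Rad51c, with 2 entries, and Xrcc5). Capitals mark any of the 4 motifs, and Dna2 holds none.
Brca2 (chr5:150522371-150522670, plus strand): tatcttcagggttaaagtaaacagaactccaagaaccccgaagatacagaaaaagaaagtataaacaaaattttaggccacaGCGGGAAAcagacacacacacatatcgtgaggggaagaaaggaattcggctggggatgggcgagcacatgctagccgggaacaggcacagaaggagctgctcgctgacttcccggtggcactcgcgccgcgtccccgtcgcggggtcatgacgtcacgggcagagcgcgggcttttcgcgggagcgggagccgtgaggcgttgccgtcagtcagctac
Xrcc3 (chr12:111813830-111814129, minus strand): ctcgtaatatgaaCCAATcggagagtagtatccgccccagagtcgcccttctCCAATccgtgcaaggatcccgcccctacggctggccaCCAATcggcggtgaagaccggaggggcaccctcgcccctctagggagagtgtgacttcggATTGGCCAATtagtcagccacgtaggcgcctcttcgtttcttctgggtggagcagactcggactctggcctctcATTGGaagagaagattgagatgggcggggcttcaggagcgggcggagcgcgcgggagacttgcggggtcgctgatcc
Dna2 (chr10:62946779-62947078, plus strand): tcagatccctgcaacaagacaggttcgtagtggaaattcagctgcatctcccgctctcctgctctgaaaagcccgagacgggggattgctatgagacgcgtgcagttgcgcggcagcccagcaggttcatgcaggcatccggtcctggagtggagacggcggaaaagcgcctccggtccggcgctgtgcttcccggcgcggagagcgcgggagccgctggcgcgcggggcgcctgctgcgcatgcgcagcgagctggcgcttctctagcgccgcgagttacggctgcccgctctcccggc
Fancf (chr7:51862218-51862517, minus strand): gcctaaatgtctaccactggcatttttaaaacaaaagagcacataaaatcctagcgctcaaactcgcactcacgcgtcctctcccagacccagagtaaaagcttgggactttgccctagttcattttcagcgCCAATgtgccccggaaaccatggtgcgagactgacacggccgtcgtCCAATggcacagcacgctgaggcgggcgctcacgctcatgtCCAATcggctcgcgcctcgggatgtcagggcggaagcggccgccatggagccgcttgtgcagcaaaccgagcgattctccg
Rad51c, entry 1 (chr11:87404457-87404756, minus strand): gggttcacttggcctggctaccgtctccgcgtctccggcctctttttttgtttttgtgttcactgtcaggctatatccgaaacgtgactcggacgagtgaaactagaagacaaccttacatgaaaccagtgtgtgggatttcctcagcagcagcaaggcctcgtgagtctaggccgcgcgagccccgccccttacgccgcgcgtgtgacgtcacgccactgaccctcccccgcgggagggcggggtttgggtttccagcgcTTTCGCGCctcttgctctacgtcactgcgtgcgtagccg
Rad51c, entry 2 (chr11:87404905-87405204, minus strand): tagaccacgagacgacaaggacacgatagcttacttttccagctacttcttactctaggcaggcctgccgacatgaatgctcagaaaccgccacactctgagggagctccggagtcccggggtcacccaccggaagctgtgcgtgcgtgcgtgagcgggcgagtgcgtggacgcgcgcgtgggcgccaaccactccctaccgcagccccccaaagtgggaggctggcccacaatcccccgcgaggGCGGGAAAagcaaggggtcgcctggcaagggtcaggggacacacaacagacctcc
Xrcc5 (chr1:72307171-72307470, plus strand): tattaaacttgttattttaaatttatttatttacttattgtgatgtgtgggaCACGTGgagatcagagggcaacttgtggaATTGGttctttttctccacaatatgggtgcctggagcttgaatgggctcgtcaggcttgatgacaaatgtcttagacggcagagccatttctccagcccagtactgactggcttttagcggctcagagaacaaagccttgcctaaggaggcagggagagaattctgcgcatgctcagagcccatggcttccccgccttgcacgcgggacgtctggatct

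In the group of BRCA1, BRCA2 and their direct partners, Brca2 had the largest change with etoposide in both lines. Brca2, whose product acts on resected DNA in recombination, was measured at 50.4, 52.96 and 48.4 CPM in the Null control libraries, 104, 97.5 and 90.7 CPM in Null MEFs after etoposide, 78.9, 76.8 and 73.4 CPM in the DKO control libraries and 128, 128 and 132 CPM in DKO MEFs after etoposide. Each treated group lay above its control group, and each DKO group above the Null group of its treatment. The log2 fold change with etoposide was 0.95 (SE 0.049, adjusted p = 5.34e-12) in Null and 0.76 (SE 0.048, adjusted p = 1.42e-10) in DKO MEFs by edgeR's test. Brca1, whose product directs ends towards recombination, was measured at 167, 159.9 and 154 CPM in the Null control libraries, 170.0, 164 and 158 CPM in Null MEFs after etoposide, 132, 131 and 132 CPM in the DKO control libraries and 142, 143 and 151 CPM in DKO MEFs after etoposide. Treated and control libraries of Null MEFs overlapped, while in DKO MEFs the treated libraries lay above the controls and below all Null libraries. Its log2 fold change was 0.032 (SE 0.038, adjusted p = 0.449) in Null and 0.14 (SE 0.039, adjusted p = 0.00276) in DKO MEFs (same edgeR test), and in Null MEFs it passed with library size alone and with the stricter filter. For the helicase gene Brip1, values were 43.1, 41.5 and 40.9 CPM in the Null control libraries, 43.5, 42.95 and 41.7 CPM in Null MEFs after etoposide, 41.02, 38.2 and 41.2 CPM in the DKO control libraries and 46.8, 45.5 and 50.2 CPM in DKO MEFs after etoposide. The DKO etoposide libraries were the highest of the 4 groups, and the Null control libraries overlapped both other groups, with log2 fold changes of 0.028 (SE 0.046, adjusted p = 0.584) in Null and 0.25 (SE 0.046, adjusted p = 0.000134) in DKO MEFs by the same edgeR test, the first of which passed with library size alone and with the stricter filter. Palb2, which bridges the BRCA proteins, rose by 0.38 and 0.45, and Bard1, the obligate partner of BRCA1, fell by 0.28 and 0.32 on the log2 scale in Null and DKO MEFs, the latter call being lost with library size alone. Of the 5 genes, 2 rose and 1 fell in Null MEFs and 4 rose and 1 fell in DKO MEFs.

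Among the strand exchange factors, which act on single-stranded DNA in recombination, lay the widest spread of responses to etoposide in Null MEFs. Xrcc3, whose promoter above has 6 matches to the CCAAT box counted over both strands, was measured at 5.11, 4.49 and 5.51 CPM in the Null control libraries, 18.3, 18.6 and 18.6 CPM in Null MEFs after etoposide, 5.20, 6.11 and 5.15 CPM in the DKO control libraries and 10.4, 9.56 and 10.8 CPM in DKO MEFs after etoposide. The 3 Null libraries after etoposide were the highest, the 3 treated DKO libraries lay between them and the controls, and the control libraries of both genotypes overlapped. The level was 3.67-fold higher with etoposide in Null (log2 1.88 (SE 0.084, adjusted p = 7.83e-13)) and 1.86-fold higher in DKO MEFs (log2 0.89 (SE 0.088, adjusted p = 6.96e-08)), both by edgeR's test. Rad51d was measured at 10.999, 10.2 and 10.6 CPM in the Null control libraries, 38.03, 34.5 and 37.3 CPM in Null MEFs after etoposide, 12.7, 12.9 and 14.4 CPM in the DKO control libraries and 24.4, 21.7 and 22.6 CPM in DKO MEFs after etoposide. The treated Null libraries were again the highest and the treated DKO libraries next, while among the controls DKO lay above Null, and no groups overlapped. It was 3.45-fold higher with etoposide in Null (log2 1.79 (SE 0.064, adjusted p = 3.72e-14)) and 1.72-fold higher in DKO MEFs (log2 0.78 (SE 0.064, adjusted p = 6.21e-09)), same edgeR test. Rad51b went the other way, from 5.10, 4.75 and 4.12 to 1.96, 2.49 and 2.19 CPM in Null and from 4.47, 4.54 and 5.05 to 3.10, 2.99 and 2.94 CPM in DKO MEFs. Its treated libraries all lay below the controls, with log2 fold changes of -1.08 (SE 0.12, adjusted p = 3.66e-07) and -0.64 (SE 0.12, adjusted p = 0.000111) by the same edgeR test. Rad51c was measured at 15.8, 15.1 and 15.3 CPM in the Null control libraries, 13.2, 14.4 and 14.03 CPM in Null MEFs after etoposide, 11.4, 10.1 and 11.9 CPM in the DKO control libraries and 16.6, 16.2 and 16.9 CPM in DKO MEFs after etoposide. In DKO MEFs the treated libraries were the higher ones, at a log2 fold change of 0.59 (SE 0.066, adjusted p = 3.58e-07), and in Null MEFs the lower ones, at -0.15 (SE 0.064, adjusted p = 0.0388), both by the same edgeR test. The fall in Null MEFs did not pass with DESeq2, limma-trend, DESeq2's size factors, library size alone (where its sign changed), the stricter filter or the libraries of those 2 groups alone, nor without control replicate 1 or etoposide replicate 1 of Null MEFs. Xrcc2, whose product forms a complex with those of Rad51b, Rad51c and Rad51d, had log2 fold changes of 0.11 in Null, which passed only in 4 alternatives (DESeq2, DESeq2's size factors, library size alone and the stricter filter), and 0.41 in DKO MEFs, which passed.

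Rad51b and Rad51c, and Rad50, Nbn, Fanci and Fanca further on, are given in full after their values were seen. Of the other strand exchange factors, Rad52, which anneals complementary strands, rose by 0.44 in Null and 0.32 in DKO MEFs on the log2 scale, and Rad54l, a motor protein of recombination, by 0.52 and 0.65. Its relative Rad54b did not pass in any comparison (with library size alone it passed with etoposide as higher in both lines, at 0.15 and 0.23, opposite in sign to -0.017 and -0.039), and its replicates overlapped in all 4 comparisons of 2 groups. For Rad54b, 35.8% of the exonic bases also belong to Fsbp on the same strand, and for Rad54l 15.4% overlap Lrrc41 on the opposite strand, so that reads there are uncertain. Over the 8 genes of this role, 4 rose, 2 fell and 2 did not pass the test in Null MEFs, and 6 rose, 1 fell and 1 did not pass the test in DKO MEFs.

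In end sensing and resection the subunits of the MRE11-RAD50-NBN complex moved apart. Rad50, its coiled-coil ATPase, was measured at 68.03, 66.9 and 63.5 CPM in the Null control libraries, 106, 102 and 96.2 CPM in Null MEFs after etoposide, 82.4, 76.5 and 81.3 CPM in the DKO control libraries and 92.8, 96.3 and 102 CPM in DKO MEFs after etoposide. Treated libraries lay above control libraries in both lines, with log2 fold changes of 0.62 (SE 0.046, adjusted p = 1.13e-09) in Null and 0.28 (SE 0.046, adjusted p = 3.39e-05) in DKO MEFs by edgeR's test. Nbn was measured at 83.3, 83.3 and 77.2 CPM in the Null control libraries, 53.03, 53.8 and 52.9 CPM in Null MEFs after etoposide, 86.3, 79.1 and 84.8 CPM in the DKO control libraries and 58.4, 58.5 and 63.7 CPM in DKO MEFs after etoposide. Here the treated libraries lay below the controls in both lines, with log2 fold changes of -0.61 (SE 0.046, adjusted p = 1.09e-09) and -0.47 (SE 0.045, adjusted p = 5.68e-08) by the same edgeR test. For the nuclease gene Mre11a the log2 fold changes were 0.072 in Null (not past the threshold, but past it in 5 alternatives, among them that without etoposide replicate 3 of Null MEFs) and 0.16 in DKO MEFs, and Rbbp8, whose product CtIP starts resection with this nuclease, fell by 0.60 and 0.23.

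Long-range resection is carried out by EXO1 or by the helicase-nuclease DNA2 with BLM. Dna2 was measured at 22.4, 23.99 and 21.3 CPM in the Null control libraries, 70.8, 69.1 and 62.5 CPM in Null MEFs after etoposide, 16.8, 16.8 and 15.95 CPM in the DKO control libraries and 52.1, 50.8 and 50.7 CPM in DKO MEFs after etoposide. Treated and control libraries were far apart in both lines, with the DKO libraries below the Null libraries of the same treatment. The level rose 2.99-fold in Null (log2 1.58 (SE 0.053, adjusted p = 1.59e-14)) and 3.10-fold in DKO MEFs (log2 1.63 (SE 0.055, adjusted p = 2.77e-14)) by edgeR's test. Exo1 was measured at 59.1, 58.3 and 60.1 CPM in the Null control libraries, 53.97, 49.4 and 52.7 CPM in Null MEFs after etoposide, 61.8, 60.03 and 63.6 CPM in the DKO control libraries and 69.8, 70.99 and 74.8 CPM in DKO MEFs after etoposide. Treated libraries lay below the controls in Null and above them in DKO MEFs, with log2 fold changes of -0.19 (SE 0.042, adjusted p = 0.000664) and 0.22 (SE 0.042, adjusted p = 0.000153) by the same edgeR test, the first of which did not pass with library size alone. Blm, the Bloom helicase gene, had log2 fold changes of -0.10 and 0.033, neither past the threshold, although the value in DKO MEFs passed with library size alone and the value in Null MEFs with no filter and without control replicate 3 or etoposide replicate 2 of Null MEFs or control replicate 2 of DKO MEFs. Over the 7 genes, 2 rose, 3 fell and 2 did not pass the test in Null MEFs, and 4 rose, 2 fell and 1 did not pass the test in DKO MEFs.

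In the chromatin response at breaks, H2afx moved in opposite directions in the 2 lines. It was measured at 509, 529.7 and 547 CPM in the Null control libraries, 396, 395 and 408 CPM in Null MEFs after etoposide, 543, 566 and 487 CPM in the DKO control libraries and 668, 676 and 675 CPM in DKO MEFs after etoposide. The control libraries of the 2 genotypes overlapped, treated Null libraries were below all of them and treated DKO libraries above all of them. The log2 fold change with etoposide was -0.40 (SE 0.044, adjusted p = 1.96e-07) in Null and 0.34 (SE 0.044, adjusted p = 2.25e-06) in DKO MEFs by edgeR's test, and both calls held in every alternative. A gene on the opposite strand overlaps 10.2% of its exonic bases. Trp53bp1, which encodes 53BP1, an adaptor that shields ends from resection, was measured at 86.5, 89.1 and 87.6 CPM in the Null control libraries, 49.1, 47.5 and 42.9 CPM in Null MEFs after etoposide, 53.7, 57.1 and 56.4 CPM in the DKO control libraries and 50.1, 47.9 and 47.6 CPM in DKO MEFs after etoposide. The Null control libraries stood alone at the top, well apart from the other 3 groups, in which DKO control was the highest and the treated libraries of both genotypes overlapped. Its log2 fold change was -0.91 (SE 0.046, adjusted p = 4.31e-12) in Null MEFs and -0.20 (SE 0.047, adjusted p = 0.000978) in DKO MEFs (same edgeR test), where it was 0.073 and did not pass with library size alone. Exons of Tubgcp4 on the opposite strand overlap 15.04% of its exonic bases. Mdc1, the H2AX-binding scaffold, rose by 0.18 and 0.33, Rnf168 rose by 0.46 and 0.35, and Rnf8 fell by 0.50 and 0.29 on the log2 scale in Null and DKO MEFs. The last of these, in DKO MEFs, did not pass with library size alone. For Rnf8, 13.2% of the exonic bases are shared with a gene on the same strand.

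In non-homologous end joining no gene reached a 2-fold change in any comparison. Xrcc5, the gene of Ku80 and 1 of the 2 genes with an E-box above, was measured at 36.2, 35.7 and 38.2 CPM in the Null control libraries, 31.4, 32.1 and 32.1 CPM in Null MEFs after etoposide, 51.5, 47.99 and 47.04 CPM in the DKO control libraries and 57.9, 57.4 and 60.2 CPM in DKO MEFs after etoposide. Treated Null libraries were the lowest and treated DKO libraries the highest of the 4 groups, which did not overlap. Its log2 fold change was -0.20 (SE 0.045, adjusted p = 0.000514) in Null, not past the threshold with library size alone, and 0.26 (SE 0.043, adjusted p = 3.49e-05) in DKO MEFs, both by edgeR's test. Its partner Xrcc6 (Ku70) rose in both lines, by 0.17 and 0.39. Xrcc4, the scaffold of the ligase, was measured at 9.73, 11.3 and 9.39 CPM in the Null control libraries, 5.85, 7.89 and 7.12 CPM in Null MEFs after etoposide, 9.87, 8.79 and 8.89 CPM in the DKO control libraries and 8.50, 8.48 and 8.72 CPM in DKO MEFs after etoposide. Treated libraries were below controls in both lines, by more in Null MEFs, at a log2 fold change of -0.54 (SE 0.10, adjusted p = 9.76e-05), and in DKO MEFs the value, not past the threshold, was -0.10 (SE 0.10, adjusted p = 0.395), both by the same edgeR test. Prkdc, the catalytic subunit of DNA-PK, was measured at 25.3, 24.1 and 23.4 CPM in the Null control libraries, 23.7, 19.3 and 19.5 CPM in Null MEFs after etoposide, 21.9, 21.4 and 20.9 CPM in the DKO control libraries and 20.1, 19.1 and 20.2 CPM in DKO MEFs after etoposide. In Null MEFs 1 treated library lay among the controls, the log2 fold change was -0.22 (SE 0.068, adjusted p = 0.00666) by the same edgeR test, and the call was lost with library size alone and with the stricter filter. In DKO MEFs, where the groups did not overlap, it was -0.11 (SE 0.069, adjusted p = 0.154) and did not pass (same edgeR test), but passed with library size alone, with a positive sign, with the libraries of those 2 groups alone and without etoposide replicate 1 of Null MEFs. Lig4, the ligase, rose by 0.30 in Null MEFs, the nuclease gene Dclre1c (Artemis) fell by 0.25 there (not past the threshold with library size alone, the stricter filter or without etoposide replicate 3), and Nhej1 (XLF) passed in neither line. Over the 7 genes, 2 rose, 4 fell and 1 did not pass the test in Null MEFs, and 2 rose, 0 fell and 5 did not pass the test in DKO MEFs.

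The Fanconi pathway splits into a core complex, which carries the ubiquitin ligase FANCL, and the FANCD2-FANCI pair that it modifies. Both genes of the pair rose. Fancd2 was measured at 32.2, 32.2 and 32.8 CPM in the Null control libraries, 47.5, 47.1 and 43.7 CPM in Null MEFs after etoposide, 25.5, 24.5 and 25.8 CPM in the DKO control libraries and 38.2, 35.8 and 39.4 CPM in DKO MEFs after etoposide. Treated libraries lay above controls in both lines and DKO libraries below Null libraries of the same treatment, with log2 fold changes with etoposide of 0.51 (SE 0.047, adjusted p = 2.11e-08) in Null and 0.58 (SE 0.049, adjusted p = 7.35e-09) in DKO MEFs by edgeR's test. Fanci was measured at 30.2, 30.01 and 30.04 CPM in the Null control libraries, 50.1, 47.9 and 51.5 CPM in Null MEFs after etoposide, 27.8, 26.4 and 26.7 CPM in the DKO control libraries and 34.02, 33.2 and 34.7 CPM in DKO MEFs after etoposide. The treated Null libraries were the highest, and the log2 fold change was 0.73 (SE 0.042, adjusted p = 2.81e-11) in Null against 0.33 (SE 0.043, adjusted p = 2.05e-06) in DKO MEFs by the same edgeR test. Exons of Polg on the opposite strand overlap 15.95% of the exonic bases of Fanci. Within the core complex the subunits diverged. Fancf, an intronless gene whose promoter above holds 3 CCAAT boxes, was measured at 20.2, 19.1 and 23.3 CPM in the Null control libraries, 9.64, 9.75 and 9.89 CPM in Null MEFs after etoposide, 19.8, 18.3 and 18.8 CPM in the DKO control libraries and 12.2, 13.001 and 13.8 CPM in DKO MEFs after etoposide. All treated libraries lay below all controls, and those of Null MEFs were the lowest, with log2 fold changes of -1.10 (SE 0.074, adjusted p = 2.53e-10) and -0.54 (SE 0.072, adjusted p = 3.74e-06) by the same edgeR test. Gas2 exons on the opposite strand overlap 14.96% of Fancf. Fanca was measured at 88.1, 86.3 and 89.7 CPM in the Null control libraries, 81.1, 82.8 and 78.98 CPM in Null MEFs after etoposide, 86.4, 88.8 and 84.5 CPM in the DKO control libraries and 109, 111 and 112 CPM in DKO MEFs after etoposide. The DKO etoposide libraries were the highest group and the Null etoposide libraries the lowest, with log2 fold changes of -0.12 (SE 0.034, adjusted p = 0.00385) in Null, which did not pass with library size alone or the stricter filter, and 0.35 (SE 0.034, adjusted p = 5.37e-08) in DKO MEFs by the same edgeR test. Zfp276 on the opposite strand overlaps 10.5% of its exonic bases.

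Of the other Fanconi genes, Fancc fell by 0.72 in Null and 0.46 in DKO MEFs on the log2 scale, and Fancm, the translocase that anchors the core complex on DNA, rose by 0.28 and 0.76. Slx4, the scaffold of the nucleases that unhook a crosslink and the other gene with an E-box, rose by 0.30 and 0.22. Fancg, a core complex subunit, rose by 0.34 in Null MEFs. Fance rose by 0.17 and Fancl fell by 0.23 in DKO MEFs, where the first did not pass with no filter, with those 2 groups alone, without control replicate 1 or without etoposide replicate 3, and the second not with library size alone. On the opposite strand, exons of Gm16133 overlap 16.4% of the exonic bases of Fancc and those of 2010111I01Rik 2.21%. Exons of Vrk2 overlap 13.7% of those of Fancl. Over the 10 genes, 5 rose, 3 fell and 2 did not pass the test in Null MEFs, and 6 rose, 3 fell and 1 did not pass the test in DKO MEFs. Polq, the gene of polymerase theta, was measured at 52.9, 55.2 and 54.9 CPM in the Null control libraries, 51.7, 52.2 and 49.1 CPM in Null MEFs after etoposide, 48.3, 48.3 and 46.5 CPM in the DKO control libraries and 55.9, 53.1 and 57.99 CPM in DKO MEFs after etoposide. The treated DKO libraries lay above their controls and the treated Null libraries just below theirs, with log2 fold changes of -0.090 (SE 0.042, adjusted p = 0.0575) in Null and 0.22 (SE 0.042, adjusted p = 0.000142) in DKO MEFs by edgeR's test. Polq in Null MEFs passed in 10 of 22 alternatives, among them those without control replicate 1 or etoposide replicate 2 of Null MEFs, without any 1 of the 3 DKO control libraries, and without etoposide replicate 2 or 3 of DKO MEFs.

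**Figure D3:**
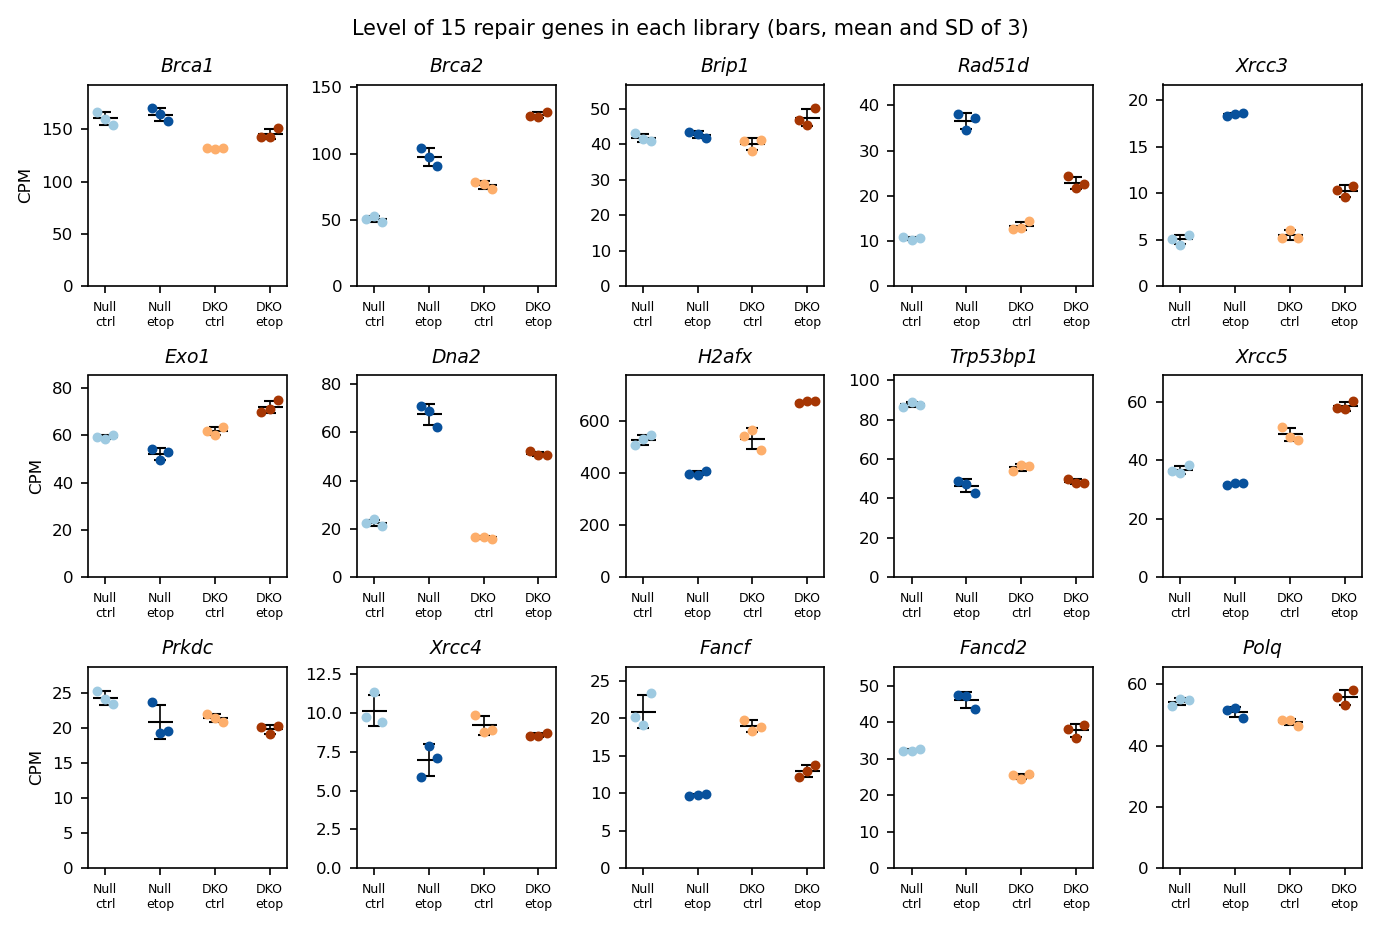
Level in CPM (linear axis from 0) of the 15 repair genes chosen by the rule for named genes, in each of the 12 libraries. Points are libraries, horizontal marks the mean and bars the SD of 3, and ctrl and etop stand for control and etoposide. Brca2 rises in both lines and is higher in DKO, and Trp53bp1 is high only in Null control among the 4 groups.

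The interaction asks whether the response to etoposide differed between the genotypes, as the log2 response in DKO minus that in Null MEFs. It passed for 23 of the 43 genes by edgeR's test, 17 higher and 6 lower, against 54% of all genes tested, 29.6% higher and 24.4% lower. The median interaction was 0.13 in the list and 0.047 overall. Under DESeq2's size factors the split was 14 higher and 9 lower, and with library size alone 26 and 4. Relative to the median of all genes, 29 of 43 lay above it. The most negative values were -1.01 (SE 0.091, adjusted p = 5.58e-08) for Rad51d and -0.98 (SE 0.12, adjusted p = 2.94e-06) for Xrcc3 in the same edgeR test, the pair whose rise in Null MEFs was the larger. The most positive were 0.74 (SE 0.062, adjusted p = 2.09e-08) for H2afx, 0.74 (SE 0.092, adjusted p = 2.54e-06) for Rad51c and 0.71 (SE 0.066, adjusted p = 6.48e-08) for Trp53bp1, by the same edgeR test. Dna2 had nearly the same response in both lines, with an interaction of 0.050 and a 95% interval of -0.10 to 0.20. Fancd2 had an interaction of 0.073 with an interval of -0.059 to 0.21, but passed with library size alone, at 0.18. By role, the interaction was higher for 3 and lower for 0 of the 5 genes of the chromatin response, 4 and 0 of 7 in end joining, 3 and 2 of the 8 strand exchange factors, 3 and 2 of 10 Fanconi genes, 2 and 1 of 7 in end sensing and resection, 1 and 1 of the 5 in the BRCA group, and higher for Polq. In end joining and the chromatin response, Lig4 (-0.24) and Rnf168 (-0.11) stayed uncalled in 12 and 16 of 21 alternatives. Elsewhere both passed as lower. The calls of Brca2, Brip1, Fancg, Mdc1 and Rad51b were each lost in at least 1 alternative, and the other 18 held in all. That of Brca2 (-0.19 (SE 0.068, adjusted p = 0.0267) by the same edgeR test) was lost with library size alone, without control replicate 1 or 3 or etoposide replicate 1 of Null MEFs, and without control replicate 1 of DKO MEFs, with an adjusted p of up to 0.316. Brip1 (0.22 (SE 0.065, adjusted p = 0.00917) by the same edgeR test) lost it with DESeq2 and with DESeq2's size factors. Rad51b (0.44 (SE 0.17, adjusted p = 0.0413), same edgeR test) lost it in 16 of 21 alternatives, among them 9 of the 12 that leave out a library, all but those without control replicate 3 of either line or etoposide replicate 2 of Null MEFs. Fancg (-0.26) lost it with library size alone, without control replicate 1 or 2 or etoposide replicate 1 of Null MEFs, and without control or etoposide replicate 3 of DKO MEFs. Mdc1 (0.15) lost it with DESeq2, with DESeq2's size factors, with no filter, with the stricter filter and without replicate 1 or 2 of either control group or etoposide replicate 2 of either line.

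Between the genotypes without etoposide the repair genes were evenly split. By edgeR's test, 14 of 43 were higher in DKO control MEFs, 14 were lower and 15 did not pass, against 33.3% higher and 33.4% lower among all genes tested (66.7% in either direction), so the shares were at the background. With library size alone the split was 9 higher and 20 lower, the median over all genes moving by -0.12. No repair gene differed 2-fold. The highest log2 fold changes were 0.62 (SE 0.045, adjusted p = 1.25e-09) for Bard1 and 0.60 (SE 0.049, adjusted p = 6.40e-09) for Brca2, and the lowest -0.65 (SE 0.046, adjusted p = 7.93e-10) for Trp53bp1 and -0.55 (SE 0.039, adjusted p = 8.79e-10) for Xrcc6, by the same edgeR test. After etoposide 25 genes were higher in DKO than in Null MEFs, 12 were lower and 6 did not pass, where the background was 37.5% higher and 36.6% lower (74% in either direction), and the median was 0.18 over the repair genes and -0.0045 overall. Under DESeq2's size factors there were 20 higher and 13 lower. The highest were 0.88 (SE 0.044, adjusted p = 6.27e-12) for Xrcc5 and 0.75 (SE 0.044, adjusted p = 5.40e-11) for H2afx, and the lowest -0.85 (SE 0.075, adjusted p = 1.48e-08) for Xrcc3 and -0.68 (SE 0.059, adjusted p = 1.07e-08) for Rad51d, by the same edgeR test. For Brca1, DKO libraries were below Null libraries in both treatments, at -0.28 and -0.17. Of the genes without a difference in control MEFs, 11 were higher and 3 lower in DKO MEFs after etoposide. Among all 15220 genes tested, 1309 and 1715 had these patterns. The 11 included H2afx (0.010 then 0.75), Fanca (-0.024 then 0.45) and Exo1 (0.063 then 0.47). The 3 were Xrcc3 (0.14 then -0.85), Fancg (-0.11 then -0.37) and Lig4 (-0.035 then -0.28). Over the 43 genes, 11 were higher in DKO MEFs in both treatments and 8 lower in both, while 3 were lower in control and higher after etoposide (Rad51c, Fancm and Polq) and 1, Rad51d, was higher in control and lower after etoposide. Among all genes tested these patterns held for 22.8%, 19.95%, 6.08% and 5.37%, in the same order. Among the genes followed here, the lower level of Prkdc in DKO control MEFs (-0.18) did not pass without control replicate 1 of Null MEFs or control replicate 2 or 3 of DKO MEFs. After etoposide, the higher level of Xrcc4 in DKO MEFs (0.30) did not pass without etoposide replicate 1 of Null or 3 of DKO MEFs, that of Brip1 (0.16) not without etoposide replicate 3 of DKO MEFs, and that of Polq (0.13) not without etoposide replicate 1 or 3 of DKO MEFs. Brip1, Fancm and Polq also did not pass there with DESeq2, with DESeq2's size factors or with the stricter filter. In control MEFs H2afx had -0.11 with library size alone, opposite in sign to 0.010, and Fanca had -0.15, and both passed there as lower. Fancg also passed as lower in control MEFs with library size alone.

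Long genes stood lower among the etoposide responses than short ones. Across the 43 genes, Spearman's rho between genomic span and log2 fold change was -0.41 in Null and -0.42 in DKO MEFs, and across the 15058 genes tested with a known span it was -0.17 and -0.14, or -0.30 and -0.28 across the 11900 of them left by the stricter filter. These correlations are across genes, which are not independent replicates and share the same libraries. The 7 repair genes that span 100 kb or more (Brip1, Rad51b, Rbbp8, Prkdc, Xrcc4, Nhej1 and Fancc) had a median log2 fold change of -0.54 in Null and -0.21 in DKO MEFs, against -0.38 and -0.26 for all 2016 genes tested of that span. The 9 genes under 20 kb had medians of 0.18 and 0.33, against 0.20 and 0.24 for all 6882 such genes. Among these 9, Fancf fell in both lines and H2afx in Null MEFs, and they are also the 2 shortest of the 43 genes.

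**Figure D4:**
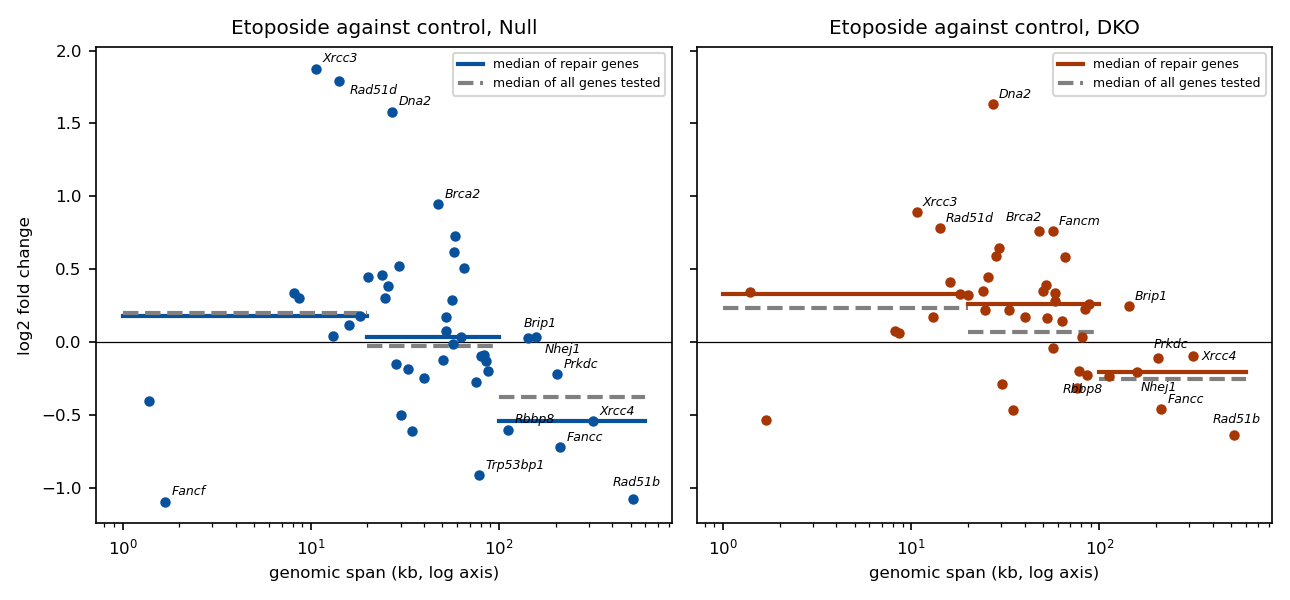
Log2 fold change with etoposide (vertical axis) against genomic span in kb (log axis) for the 43 repair genes, in Null (left) and DKO (right) MEFs. Solid lines are medians of the repair genes and dashed lines medians of all genes tested, within spans under 20 kb, 20 to 100 kb and 100 kb or more, and the 7 longest genes lie mostly below 0 in Null MEFs.

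A further 55 genes of double-strand break and crosslink repair, listed by function, served for comparison. With etoposide 29 of the 55 rose (52.7%) and 19 fell (34.5%) in Null MEFs (median 0.15). In DKO MEFs 25 rose (45.5%) and 16 fell (29.1%), with a median of 0.065. Among all genes tested, 42.3% rose and 37.2% fell in Null and 43.7% rose and 31.5% fell in DKO MEFs. Rnf169, a ubiquitin ligase that limits 53BP1 at breaks, and Fam35a, a shieldin subunit, rose the most in Null MEFs, at log2 fold changes of 1.80 (SE 0.042, adjusted p = 1.59e-16) and 1.28 (SE 0.066, adjusted p = 5.38e-12) by edgeR's test. Bre, a subunit of the BRCA1-A complex, and Rad54l2 fell the most, at -1.38 (SE 0.091, adjusted p = 2.00e-10) and -0.80 (SE 0.045, adjusted p = 2.03e-11) by the same edgeR test. In DKO against Null MEFs, 15 of the 55 were higher and 20 lower in control and 24 higher and 19 lower after etoposide, and the interaction passed as higher for 16 and as lower for 11.

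Recombination and Fanconi genes are used mainly in S and G2 phase, so genes of cycling cells were read beside them. Summed over 20 genes of S phase and mitosis, with Top2a the most abundant in both control groups and Mki67 in both etoposide groups, the level was 5579.8 ± 103 CPM (SD, n = 3) in Null control, 5528 ± 47.02 in Null etoposide, 6012 ± 20.1 in DKO control and 5853 ± 163 CPM in DKO etoposide MEFs. Within that list, 9 rose (45%) and 8 fell (40%) in Null MEFs, against 42.3% and 37.2% of all genes tested. In DKO MEFs 10 rose (50%) and 7 fell (35%), against 43.7% and 31.5%. The steady sum hides genes that moved apart. Top2a, Ccnb1, Cdk1 and Plk1, genes of G2 and mitosis, fell in both lines, at log2 fold changes of -0.93, -0.93, -0.67 and -0.92 in Null and -0.82, -0.93, -0.42 and -1.11 in DKO MEFs. Ccne1, Ccne2, Cdc6 and Rrm2, genes of entry into S phase and of DNA synthesis, rose in both, at 1.46, 1.79, 0.70 and 1.38 in Null and 0.99, 1.39, 0.70 and 0.60 in DKO MEFs. These 8 were chosen after their values were seen. Aurkb, Ccna2 and Mki67, also of the 20 genes, had mean levels of 82.8, 386 and 693 CPM in Null control MEFs. After etoposide these were 78.9, 360 and 633 CPM. In DKO MEFs they went from 82.2, 371 and 927 to 73.0, 265 and 856 CPM. Other genes of S phase went both ways. Mcm2 and Gins1 fell in Null MEFs (-0.10 and -0.12) and Gins2 did not pass in DKO MEFs (-0.056). The mean level of Mcm7 went from 335 to 457 CPM in Null and from 343 to 437 CPM in DKO MEFs. That of Cdt1 went from 209 to 248 and from 160 to 223 CPM. The damage response itself was read from 5 well known p53 targets, all of which rose in both lines. Their sum went from 339 ± 14.5 to 5166 ± 77.5 CPM in Null and from 315 ± 5.74 to 1764 ± 22.9 CPM in DKO MEFs. The interaction passed as lower for all 5, against 24.4% of all genes tested. The study's authors state that immortalizing these MEFs with SV40 can alter p53 stability and so confound results. The part of the cell cycle and of the p53 response in the repair genes' changes was not tested.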

How the data were processed

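The values used are counts of reads per gene, which the authors deposited as 1 table of 24421 genes in 12 libraries. Per their notes reads were aligned with HISAT2 to mm10 and counted with featureCounts, while the study's methods and the table's summary lines point to HTSeq. Versions and the strand setting for counting are not given in the sources used here. Reads on genes were 56.0 to 58.9% of all that the table accounts for in Null control, 53.4 to 55.0% in Null etoposide, 60.8 to 63.1% in DKO control and 57.6 to 59.1% in DKO etoposide libraries, with 15547 to 15822, 18871 to 19215, 14809 to 15200 and 17912 to 19159 genes counted at least once, so that both measures moved with treatment. Lines for reads on no feature (22.5 to 24.2%, 25.1 to 27.3%, 20.2 to 21.1% and 21.2 to 22.3% in the same order) did not enter library sizes or tests. Genes were filtered (filterByExpr, 15220 kept), scaled by TMM and fitted with edgeR 4.0.16 (quasi-likelihood, no replicate block) in R 4.3.3, for 5 comparisons, with adjustment by Benjamini and Hochberg over all genes tested. The 95% intervals are normal intervals from the SE. The procedure was tested on simulated counts of 15220 genes for etoposide in Null MEFs. Of 50 genes changed at each size, 46% were recovered at 1.25-fold, 74% at 1.5-fold, 86% at 2-fold and 82% at 4-fold. There, 5 unchanged genes were called. In the data 79.4% of genes were called in that comparison, a far larger share than was changed in this test. How often genes were missed or wrongly called in the data themselves was not tested. Replicate numbers showed no pairing. Each library was taken as the deviations of its log2 CPM from the mean of its group, and these deviations were correlated across groups. Libraries of the same number gave correlations of -0.032 to 0.043 over 18 pairs, with 0 over 0.1. Those of other numbers gave -0.047 to 0.048 over 36 pairs. Gene spans and exons came from GENCODE M21. The alternatives were DESeq2 1.42.0, limma-trend 3.58.1 (the study's method), other scalings and filters, a replicate block, the 2 compared groups alone and leaving out each library. The members and lists were chosen with earlier results of these data known. Genes given in full were Brca1, Brca2, H2afx, Trp53bp1, Prkdc, Fancd2 and Polq, and in each role the largest change with etoposide in Null MEFs and the largest interaction, with others chosen after their values were seen.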

Additional observations from a re-analysis of the deposited data

Results flagged for a closer look

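The response to etoposide differed between DKO and Null MEFs, by the interaction term of edgeR's test over all genes, for 23 of the 43 repair genes, against 54% of all genes tested, so the share of the repair genes is at the background. Each gene is listed here only because its own interaction passed the threshold. The values are log2 responses in DKO minus those in Null MEFs. For Brca2, Brip1 and the strand exchange factors they were -0.19 for Brca2, 0.22 for Brip1, 0.44 for Rad51b, 0.74 for Rad51c, -1.01 for Rad51d, 0.30 for Xrcc2 and -0.98 for Xrcc3. For end sensing, resection and the chromatin response they were -0.34 for Rad50, 0.37 for Rbbp8, 0.40 for Exo1, 0.74 for H2afx, 0.15 for Mdc1 and 0.71 for Trp53bp1. End joining gave 0.42 for Dclre1c, 0.45 for Xrcc4, 0.46 for Xrcc5, 0.22 for Xrcc6 and 0.31 for Polq. The Fanconi genes gave 0.47 for Fanca, 0.56 for Fancf, -0.26 for Fancg, -0.39 for Fanci and 0.48 for Fancm. The calls of Brca2, Brip1, Fancg, Mdc1 and Rad51b were lost in some alternatives, that of Rad51b being kept in 5 of 21 and that of Mdc1 in 11 of 21. Each genotype was 1 line, so the difference is one between these lines.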

How the results depend on the processing

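Over the 43 genes, the 5 comparisons and all alternatives, 3299 of 3409 values past the threshold stayed past it in the same direction, 110 lost it, and 82 values crossed it. The counts of higher and lower genes moved by more than 1.5 times only with library size alone, to 10 genes lower with etoposide in Null, 4 lower in DKO MEFs, 9 higher in DKO control than Null control MEFs and 26 higher for the interaction. Under that scaling the genes falling in DKO MEFs among all tested went from 4790 to 3004. Smaller moves came with DESeq2's size factors, to 19 and 15 (higher and lower) with etoposide in Null, 20 and 13 for genotype after etoposide and 14 and 9 for the interaction. With library size alone 9 values past the threshold in at least 1 of the 2 scalings changed sign. These were 0.016 for Rad51c, 0.047 for Fanca and 0.15 for Rad54b (etoposide in Null), 0.23 for Rad54b, 0.039 for Rbbp8, 0.073 for Trp53bp1, 0.16 for Prkdc and 0.045 for Fancl (etoposide in DKO) and -0.11 for H2afx (DKO against Null control). The cause was not tested. With a replicate block the higher and lower calls were 17 and 16, 26 and 9, 14 and 14, 25 and 12, and 16 and 7, in the order etoposide in Null, in DKO, genotype in control, genotype after etoposide and interaction. An older version of the edgeR fit and a fit without Rn45s, Rmrp and Rpph1 were chosen after seeing the data. The lowest count of a repair gene in a library was 150, for Rad51b.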
